A study of Mus musculus with 4 samples.

Results

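The 78 genes described here are the mitochondrial ribosomal proteins, chosen as the protein-coding mouse genes whose symbol begins with Mrpl or Mrps followed by a number, among the 11502 gene symbols of the deposited table. Of these, 49 carry the large subunit symbol Mrpl and 29 the small subunit symbol Mrps. Their mRNA was measured by RNA-Seq of the immortalized mouse hippocampal line HT-22, with 1 library for each of 4 groups. The Ctrl cells carried the negative control lentivirus, the PGC-1α cells carried a lentivirus that overexpresses PGC-1α, and both were selected with puromycin. The Ctrl+OGD and PGC-1α+OGD cells were the same lines after oxygen and glucose deprivation (OGD) for 2 h in medium lacking serum and glucose, followed by 24 h in normal medium. The labels give the cells without PGC-1α as wild type. With 1 library a group there is no replicate error, so every difference below compares 2 libraries, carries no p value, and has not been checked against replicate spread.

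Mitochondria carry their own ribosome, which translates the small set of respiratory chain proteins encoded by mitochondrial DNA. Its rRNAs are transcribed in the organelle, while all of its proteins are encoded in the nucleus, made in the cytosol and imported, so that a working ribosome needs many nuclear genes at once. PGC-1α is a transcriptional coactivator of mitochondrial biogenesis that works with the nuclear respiratory factors NRF1 and GABPA and with the estrogen-related receptors. Genes for respiratory chain subunits and for the mitochondrial translation machinery are known targets of these factors.

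Values are FPKM, which scales fragments by transcript length and by sequencing depth, summed over the deposited transcripts of each gene. The deposited totals were between 331892 and 353381 FPKM and the number of reads is unknown. Each set of 4 values below gives the untreated cells first and the OGD-treated cells after them, each time control before PGC-1α. The overexpressed gene Ppargc1a had 0.900 FPKM in Ctrl and 35.1 in PGC-1α, and 0.103 and 8.41 after OGD. Of 10 neuron markers only 3 were in the table, with a summed level of 5.62 to 9.51 FPKM. The listed 3 of 5 fibroblast markers, Col1a1, Col1a2 and Pdgfra, summed to 432 to 523 FPKM, and 3 of 5 astrocyte markers to 13.6 to 24.0. Of 5 oligodendrocyte markers 1 was listed, at 3.26 to 4.76 FPKM, and of 5 microglia markers 1, at 0.0239 to 1.22. None of 4 endothelial markers was listed. Rbfox3, Map2 and Tubb3 are among the neuron markers without a listed value, as are Dcn and Lum among the fibroblast markers. Since the filter behind the table is unknown, this does not show that they were not expressed. Changes are differences of log2(FPKM + 1), and genes are called higher or lower past a change of 1.5-fold. All counts below are over the genes whose mean reached 1 FPKM, which are 10604 genes in all and 77 of the 78 members. The member left out is Mrpl53, listed at 0.302 FPKM in Ctrl and 0.240 in PGC-1α, and 0.571 and 0.608 after OGD.

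The mitochondrial ribosomal proteins were expressed together at moderate levels, and their summed level was lowest in Ctrl. The sum over the 78 genes was 2664 FPKM in Ctrl and 3140 in PGC-1α, and 3322 and 3299 after OGD. The other 3 libraries were thus 1.18, 1.25 and 1.24 times Ctrl, in that order, and lay close to each other. As a share of all FPKM the sum was 0.804%, 0.930%, 0.942% and 0.951%. The large subunit genes summed to 1742, 2060, 2173 and 2147 FPKM, and the small subunit genes to 922, 1080, 1150 and 1152 FPKM. Because these are bulk libraries scaled to their own totals, a lower value can reflect fewer cells with the transcript or less of it per cell, which cannot be told apart.

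Levels differed far more between members than between libraries. The mean over the 4 libraries had a median of 29.5 FPKM over the 78 genes, with quartiles of 16.1 and 51.3, while the median of all tested genes was 12.6. Of the members, 62 lay above that median of all genes. Above 10 FPKM in every library were 64, and the share of all tested genes that pass this level is not given here. The highest was Mrpl42, a mitochondria-specific protein of the large subunit, with 150 FPKM in Ctrl and 209 in PGC-1α, and 209 and 245 after OGD. Mrpl52 followed with 168, 225, 193 and 178 FPKM in the same order of libraries. Next by mean FPKM were Mrps21 with 133, Mrps15 with 122 and Mrpl30 with 114. At the low end, below every member but Mrpl53, stood Mrpl3 with a mean of 3.74 and Mrps16 with 3.81 FPKM. The upper quartile of these means was 3.19 times the lower. The median was 31.5 FPKM for the large and 26.7 FPKM for the small subunit genes.

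**Figure D1:**
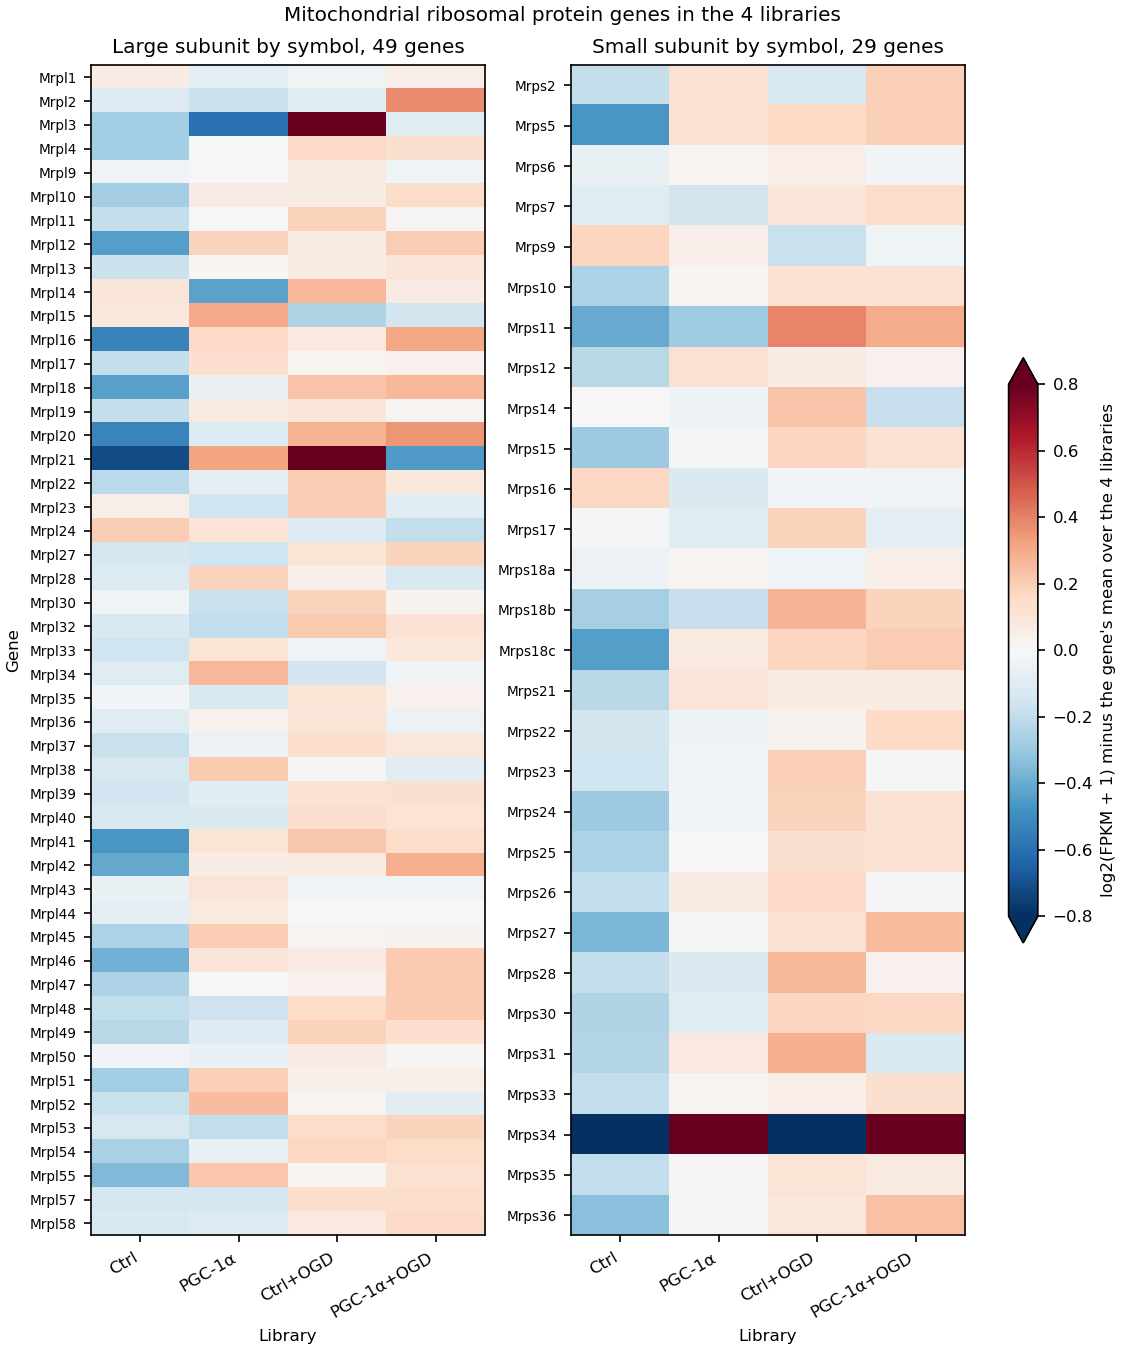
Level of every member in each library, as log2(FPKM + 1) minus the mean of that gene over the 4 libraries. Rows are the 49 large subunit genes (left) and 29 small subunit genes (right), columns are the libraries, blue is below and red above the gene's own mean, and the scale is clipped at -0.8 and 0.8; the Ctrl column is mostly blue.

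The first comparison asks how PGC-1α overexpression moved these genes in untreated cells. Most members were slightly higher in PGC-1α than in Ctrl, but few passed 1.5-fold. Among the 77 tested members 60 lay above 0 and 17 below, whereas 45.8% of all tested genes lay above 0 and 54.2% below. The median log2 fold change of the members was 0.20 with quartiles of 0.02 and 0.34, beside -0.03 for all tested genes. Only 4 members were at least 1.5-fold higher, beside 4.91% of all tested genes, and none was at least 1.5-fold lower, beside 5.63%. The count past 1.5-fold is thus near the background share, and most members lay only slightly above 0.

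The 4 members past 1.5-fold were Mrps34, Mrpl21, Mrpl16 and Mrpl12. Mrps34, a small subunit protein that is needed for the stability of the small subunit rRNA, had 0.138 FPKM in Ctrl and 10.4 in PGC-1α, and 0.141 and 5.89 after OGD. It was near the floor in both control libraries and present in both PGC-1α libraries. The log2 difference between PGC-1α and control was 3.32 without and 2.59 with OGD. Mrps34 (ENSMUSG00000038880) is on chromosome 17 (GRCm38, positions 24895116 to 24897502, plus strand), shares exons with Nme3 on the same strand, and overlaps Mapk8ip3 on the other strand. Nme3 was listed at 0.483, 0.429, 0.874 and 0.487 FPKM in the order of libraries above. All of these values lie under 1 FPKM, so they cannot show whether Nme3 followed Mrps34. The table holds 1 of the 3 annotated Mrps34 transcripts, a coding one of 918 bases. Mapk8ip3 was listed at 5.86, 3.09, 5.30 and 6.22 FPKM. It was lowest in PGC-1α, where Mrps34 was highest, and highest in PGC-1α+OGD, where Mrps34 was also above its control. Whether reads were assigned by strand is not stated, although the library kit was stranded, so it is unknown whether reads of genes on opposite strands were separated. Among the 78 members, 8 share exons with a gene on the same strand and 28 overlap one on the other strand.

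Mrpl16, which has a bacterial relative near the peptidyl transferase centre, had 22.5 FPKM in Ctrl and 37.0 in PGC-1α, and 35.0 and 41.2 after OGD. Mrpl12, the mitochondrial relative of the bacterial stalk protein that recruits translation factors, had 54.4, 84.0, 77.3 and 85.3 FPKM. Both were lowest in Ctrl, with the other 3 libraries close together. Their log2 fold changes in PGC-1α vs Ctrl were 0.69 and 0.62, and in PGC-1α+OGD vs Ctrl+OGD 0.23 and 0.14. Mrps5, a small subunit protein, lay just under the criterion at 0.58, with 9.06 FPKM in Ctrl and between 14.04 and 14.8 FPKM in the other libraries. The lowest members were Mrpl14 at -0.53, Mrpl3 at -0.31 and Mrps16 at -0.28, all short of 1.5-fold. Mrpl14, at the interface between the subunits, had 70.6 FPKM in Ctrl and 48.6 in PGC-1α, and 79.5 and 69.0 after OGD. Here the PGC-1α library was low and the other 3 were similar.

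After OGD, the members as a group were at nearly the same level with and without PGC-1α overexpression. Between PGC-1α+OGD and Ctrl+OGD, 35 members lay above 0 and 42 below, beside 47.1% and 52.9% of all tested genes, and the median was -0.01, as it was for all tested genes. Mrps34 alone was at least 1.5-fold higher, beside 3.08% of all genes, and Mrpl21 and Mrpl3 were at least 1.5-fold lower, beside 3.82%. The next highest values were 0.48 for Mrpl2 and 0.32 for Mrps2, and the third lowest was -0.41 for Mrps14. Mrpl2, a core protein of the peptidyl transferase region, had 39.9 FPKM in Ctrl and 38.1 in PGC-1α, and 40.1 and 56.2 after OGD, so that the last library stood alone. Mrps2 had 23.4, 29.3, 24.5 and 30.8 FPKM. Its log2 fold changes of 0.31 and 0.32 were close to each other.

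**Figure D2:**
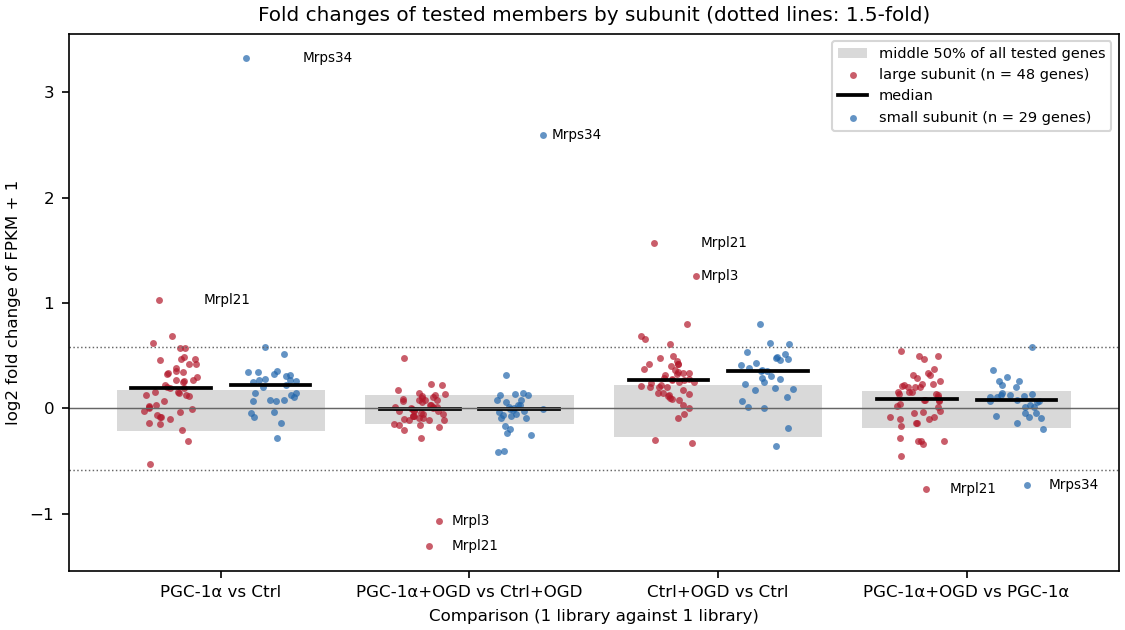
Log2 fold change of FPKM + 1 for the 77 tested members in the 4 comparisons, each of 1 library against 1 library. Red points are large subunit genes (n = 48), blue points small subunit genes (n = 29), black bars the medians, grey boxes the middle 50% of all tested genes and dotted lines 1.5-fold; the points lie mostly above 0 in the 2 comparisons with Ctrl and around 0 in PGC-1α+OGD vs Ctrl+OGD.

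Those comparisons of PGC-1α with control share no library. For 63 of the 77 members the difference between PGC-1α and control was smaller or more negative with OGD than without, and for 14 it was larger, beside 49.3% of all tested genes on the smaller side. The median of this change was -0.23 for the members and 0.01 for all tested genes. Ppargc1a itself was lower in PGC-1α+OGD than in PGC-1α, as given above, and the part of its level in this change was not tested. Across the 77 members the log2 fold changes of the comparisons had a Pearson r of 0.66 and a Spearman rho of 0.33, but without Mrps34 these were 0.04 and 0.31. Over all tested genes r was 0.12 and rho 0.11. Members are not replicates of a condition, and each value comes from the same 4 libraries. By summed values Mrps34 was the only member at least 1.5-fold higher in both comparisons, beside 0.707% of all tested genes. None was lower in both, beside 0.745%, and Mrpl21 alone passed 1.5-fold in opposite directions, beside 0.943%. By its highest transcript Mrps10 was also at least 1.5-fold higher in both, at 1.02 and 0.63. Its summed values were at 0.27 and 0.01.

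**Figure D3:**
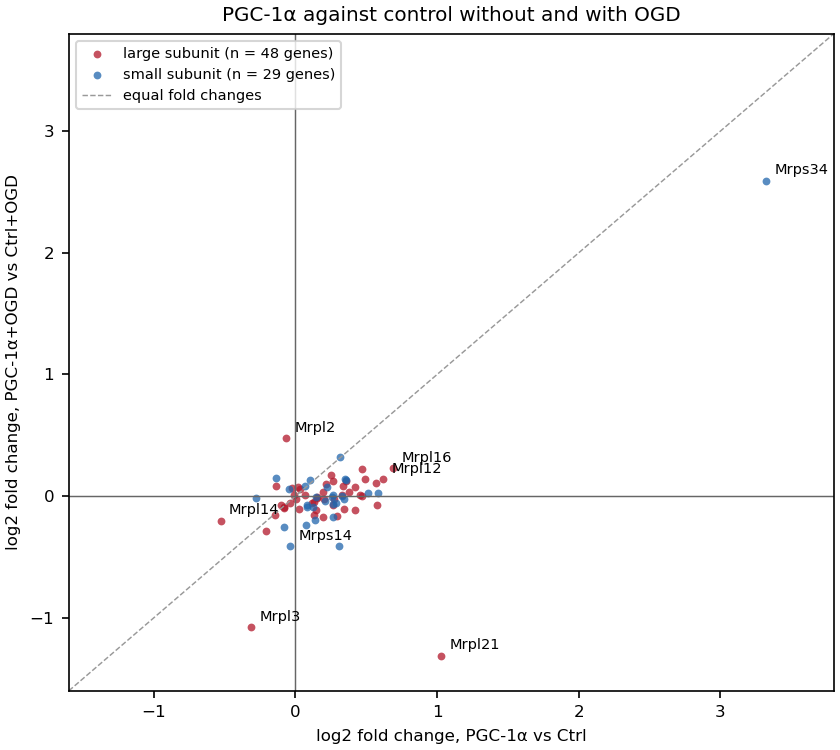
Log2 fold change of each of the 77 tested members in PGC-1α vs Ctrl (horizontal axis) against PGC-1α+OGD vs Ctrl+OGD (vertical axis). Red points are large and blue points small subunit genes, and the dashed line marks equal fold changes; most points lie to the right of 0 and below the dashed line, Mrps34 is high on both axes, and Mrpl21 is at 1.03 and -1.31.

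The OGD comparison in cells without PGC-1α overexpression had the highest median of the members among the 4 comparisons. Ctrl+OGD was above Ctrl for 71 members and below for 6, beside 48.0% and 52.0% of all tested genes, and the median was 0.28, against -0.02 for all tested genes. The 9 members at least 1.5-fold higher, beside 6.20% of all genes, were Mrpl21, Mrpl3, Mrpl20, Mrps11, Mrpl41, Mrpl18, Mrps5, Mrps18c and Mrpl16, and none was at least 1.5-fold lower, beside 7.71%. Mrpl20, a large subunit protein with a bacterial relative, had 39.1 FPKM in Ctrl and 52.6 in PGC-1α, and 69.1 and 73.0 after OGD. Mrps11, a protein of the small subunit platform, had 29.7, 32.5, 52.3 and 49.0 FPKM. Both OGD libraries were above both untreated libraries in these genes, and the log2 fold changes in Ctrl+OGD vs Ctrl were 0.81 and 0.80. The share of all tested genes that separate in this way is not given here. The lowest members were Mrps9 at -0.36, Mrpl15 at -0.33 and Mrpl24 at -0.30, all short of 1.5-fold. Mrpl24 had 70.1 FPKM in Ctrl and 66.1 in PGC-1α, and 56.6 and 53.0 after OGD, and Mrpl15 had 42.8, 49.96, 33.9 and 36.3 FPKM. In these summed values the OGD libraries were the low ones, but the transcripts differed. The highest Mrpl24 transcript, of 1339 bases, had 45.3 FPKM in Ctrl and 44.7 in Ctrl+OGD. The 4203-base transcript of Mrpl15 went the other way, with 4.06 FPKM in Ctrl and 11.3 in PGC-1α, and 13.8 and 16.5 after OGD. The other transcripts of Mrpl15 were lower in the OGD libraries. Mrps11 overlaps Mrpl46 on the opposite strand, which was at 0.45 in the same comparison. Mrpl18 overlaps Tcp1 on the opposite strand, and Tcp1 was at 0.67 there, close to Mrpl18 at 0.66.

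In cells with PGC-1α overexpression, OGD came with little difference in these genes. PGC-1α+OGD was above PGC-1α for 52 members and below for 25, beside 50.1% and 49.9% of all genes, and the median was 0.08 beside 0.00. None was at least 1.5-fold higher, beside 3.82% of all genes, and Mrpl21 and Mrps34 were at least 1.5-fold lower, beside 5.22%. The highest values were 0.58 for Mrps11, 0.55 for Mrpl2 and 0.50 for Mrpl14, all short of 1.5-fold. Mrpl21 was at -0.77 and Mrps34 at -0.73, and the next lowest was -0.45 for Mrpl15.

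Taking the libraries in order, Ctrl was the lowest of the 4 in 56 of the 77 members (72.7%), beside 28.2% of all tested genes. PGC-1α was lowest in 14 members (24.4% of all genes), PGC-1α+OGD in 4 (23.0%) and Ctrl+OGD in 3 (24.4%). The highest library was Ctrl+OGD in 33 members (26.1% of all genes), PGC-1α+OGD in 25 (18.9%), PGC-1α in 15 (20.5%) and Ctrl in 4 (34.5%). The comparisons of PGC-1α and of Ctrl+OGD with Ctrl share that library, so a lower value there raises both, and a property of this one library and a difference between the conditions cannot be told apart. Scaling the libraries by the median of gene ratios gave factors of 1.02 for Ctrl and 0.999 for PGC-1α, and of 1.00 and 0.995 after OGD.

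The large and small subunits had similar medians in each comparison. In PGC-1α vs Ctrl the median was 0.19 for the 48 large subunit genes, with 36 above 0 and 3 at least 1.5-fold higher, and 0.22 for the 29 small subunit genes, with 24 above 0 and 1 at least 1.5-fold higher. In Ctrl+OGD vs Ctrl it was 0.27 for the large subunit, with 44 above 0, and 0.35 for the small subunit, with 27 above 0. Of all tested genes 45.8% lay above 0 in PGC-1α vs Ctrl and 48.0% in Ctrl+OGD vs Ctrl. In PGC-1α vs Ctrl 4.91% of them were at least 1.5-fold higher, which the counts of both subunits are near. Both subunits were at -0.01 in PGC-1α+OGD vs Ctrl+OGD, and at 0.09 and 0.08 between the PGC-1α libraries with and without OGD. The large minus the small median was thus -0.03, -0.08, -0.002 and 0.01 in these comparisons. All of these gaps are narrower than the interquartile range of either subunit in the same comparison. Ctrl was the lowest library in 32 of the 48 large and 24 of the 29 small subunit genes, beside 28.2% of all tested genes.

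Symbol and place in the ribosome differ for a few members. Mrps30 and Mrps18a sit in the large subunit of the assembled particle, and Mrps36 is a component of the 2-oxoglutarate dehydrogenase complex and not of the ribosome. Mrps30 had 15.9 FPKM in Ctrl and 17.7 in PGC-1α, and 21.5 and 21.4 after OGD. Mrps36 had 50.7, 64.7, 68.5 and 75.6 FPKM, and like most true subunits it was lowest in Ctrl. With these genes placed by the assembled ribosome, 50 large and 26 small subunit genes had a median difference of -0.06 in PGC-1α vs Ctrl and -0.06 in Ctrl+OGD vs Ctrl.

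The Mrps18 paralogs, 3 relatives of a single bacterial protein, occupy different sites of the ribosome. Mrps18a differed little between libraries, with 45.4 FPKM in Ctrl and 47.6 in PGC-1α, and 45.8 and 48.5 after OGD. Mrps18b had 13.2, 13.96, 19.6 and 18.3 FPKM, and was higher in both OGD libraries. Mrps18c had 42.2, 60.6, 65.2 and 66.5 FPKM, and was low in Ctrl alone. Each paralog thus had its own pattern across the libraries.

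By role, selected members of the same region of the ribosome differed in their log2 fold changes. They were picked after their values had been seen and are not the full set of any region. In the stalk region Mrpl12 was at 0.62 in PGC-1α vs Ctrl, while Mrpl10, which anchors it, was at 0.34 and Mrpl11, at the stalk base, at 0.19. Around the exit of the nascent chain Mrpl45, which binds the ribosome to the inner membrane, was at 0.46, Mrpl22 at 0.15, Mrpl23 at -0.21 and Mrpl24 at -0.08. The central protuberance proteins Mrpl38, Mrpl40, Mrpl46 and Mrpl48 were at 0.34, 0.01, 0.49 and 0.03. In the small subunit the decoding protein Mrps12 was at 0.35 and the pentatricopeptide repeat protein Mrps27 at 0.36, while Mrps7, which nucleates the head, was at -0.05. Mrpl58, a peptidyl-tRNA hydrolase built into the large subunit, was at 0.02.

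Members were also grouped, after their values had been seen, by whether a bacterial ribosome has a related protein. The 48 tested members with such a relative had a median of 0.19 in PGC-1α vs Ctrl, with 33 above 0, and of 0.26 in Ctrl+OGD vs Ctrl, with 42 above 0. The 28 mitochondria-specific ones had 0.20 with 26 above 0, and 0.31 with all 28 above 0. Of all tested genes 45.8% and 48.0% lay above 0 in these comparisons. The medians were close, and the members below 0 were mostly ones with a bacterial relative.

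**Figure D4:**
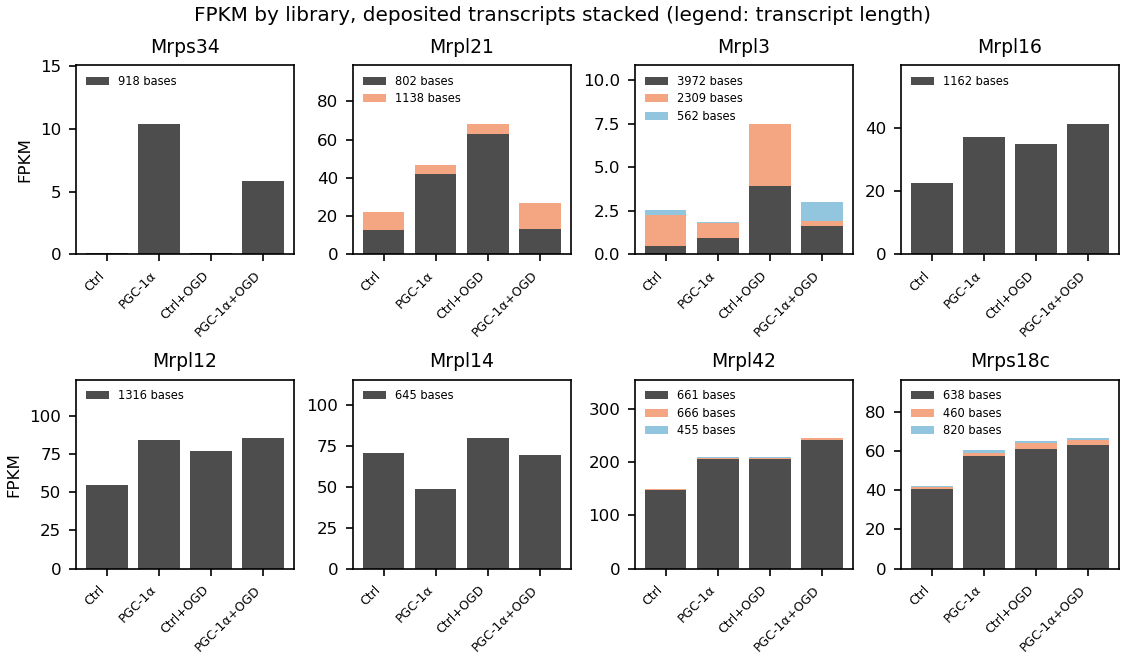
FPKM of 8 members in the 4 libraries, with the deposited transcripts of each gene stacked and labelled by length in bases; each panel has its own vertical axis from 0. Mrps34 is near 0 in both control libraries, Mrpl21 is highest in Ctrl+OGD through its 802-base transcript, and Mrpl16, Mrpl12, Mrpl42 and Mrps18c are lowest in Ctrl.

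Mrpl21 and Mrpl3 differed most between libraries after Mrps34, and both have more than 1 transcript in the table. Mrpl21 (ENSMUSG00000024829), a large subunit protein with a bacterial relative (chromosome 19, positions 3282901 to 3292837, plus strand), had 22.3 FPKM in Ctrl and 46.5 in PGC-1α, and 68.2 and 26.9 after OGD. The level was high with PGC-1α alone and with OGD alone and near that of Ctrl with both, with log2 fold changes of 1.03 and 1.57 against Ctrl and -1.31 between the OGD libraries. Its 802-base transcript had 12.7, 42.2, 63.0 and 13.6 FPKM, and its 1138-base transcript had 9.64, 4.38, 5.22 and 13.3 FPKM. The shorter transcript was high in PGC-1α and Ctrl+OGD, where the longer one was low, and how reads were divided between transcripts is not stated. Mrpl21 also overlaps Ighmbp2 on the opposite strand, and whether reads were assigned by strand is not stated. Mrpl3, a core protein of the large subunit, had 2.56, 1.86, 7.49 and 3.03 FPKM over 3 transcripts, with Ctrl+OGD standing alone, and shares exons with Gm38077 on the same strand. Its 3972-base transcript had 0.478, 0.932, 3.93 and 1.63 FPKM, and its 2309-base transcript 1.78, 0.884, 3.56 and 0.293 FPKM.

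For the members as a group the medians differed little with the number of transcripts. The 43 tested members with 1 transcript had a median of 0.20 in PGC-1α vs Ctrl, with 34 above 0, and of 0.30 in Ctrl+OGD vs Ctrl, with 40 above 0. The 34 with 2 or more had 0.20 with 26 above 0, and 0.25 with 31 above 0. At least 1.5-fold higher in Ctrl+OGD vs Ctrl were 3 of the 43 and 6 of the 34, beside 6.20% of all tested genes. In PGC-1α vs Ctrl these counts were 3 and 1, beside 4.91%. At least 1.5-fold lower in PGC-1α+OGD vs Ctrl+OGD were 0 of the 43 and 2 of the 34, beside 3.82%. The transcripts of these genes are short, with a median of 1280 bases for the highest transcript of each member against 2797 bases for all tested genes. The 3691 tested genes of up to 2114 bases had a median of 0.09 in Ctrl+OGD vs Ctrl, beside -0.02 for all tested genes, and of 0.00 in PGC-1α vs Ctrl, beside -0.03. After a linear trend in transcript length and GC content over all genes was removed, the median of the members was 0.20 in PGC-1α vs Ctrl and 0.26 in Ctrl+OGD vs Ctrl. The members above 0 went from 60 to 59 in PGC-1α vs Ctrl and from 71 to 62 in Ctrl+OGD vs Ctrl.

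The start regions of the members were searched for motifs of the factors that PGC-1α coactivates. RefSeq start regions (GRCm38.p6, 250 bases before to 50 after each start) were matched for 69 of the 78 members, and both strands were searched. Mrps34 is among the 9 members without a matched region and was not searched. The ETS core CCGGAAG, which GABPA binds, was in 26 of the 69 (37.7%), against 22.4% of 8406 tested genes and 8.86% of all 32851 start regions. The sequences are shown for the 4 members with the highest log2 fold change in PGC-1α vs Ctrl among those that hold a searched motif, each with 250 bases before and 20 from the start, 5′ to 3′ on the strand of the gene, with the ETS core on either strand in capitals. They are Mrpl21 (chr19:3282792-3283061), Mrps18c (chr5:100798509-100798778), Mrpl51 (chr6:125191950-125192219) and Mrpl52 (chr14:54426659-54426928), all on the plus strand:
Mrpl21: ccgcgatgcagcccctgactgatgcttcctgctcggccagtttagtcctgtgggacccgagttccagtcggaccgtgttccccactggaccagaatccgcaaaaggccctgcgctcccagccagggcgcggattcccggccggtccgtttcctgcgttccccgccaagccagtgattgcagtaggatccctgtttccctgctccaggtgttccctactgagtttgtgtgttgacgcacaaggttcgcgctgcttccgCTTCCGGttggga
Mrps18c: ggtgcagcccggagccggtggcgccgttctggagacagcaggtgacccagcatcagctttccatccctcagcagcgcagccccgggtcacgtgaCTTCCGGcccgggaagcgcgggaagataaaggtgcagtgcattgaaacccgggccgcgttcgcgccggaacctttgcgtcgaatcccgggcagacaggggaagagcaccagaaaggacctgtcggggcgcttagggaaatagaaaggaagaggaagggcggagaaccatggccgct
Mrpl51: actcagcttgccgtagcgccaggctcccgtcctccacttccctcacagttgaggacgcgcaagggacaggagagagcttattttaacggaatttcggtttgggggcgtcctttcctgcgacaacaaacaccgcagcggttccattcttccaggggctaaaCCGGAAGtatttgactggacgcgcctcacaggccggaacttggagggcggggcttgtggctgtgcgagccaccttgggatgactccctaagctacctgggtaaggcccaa
Mrpl52: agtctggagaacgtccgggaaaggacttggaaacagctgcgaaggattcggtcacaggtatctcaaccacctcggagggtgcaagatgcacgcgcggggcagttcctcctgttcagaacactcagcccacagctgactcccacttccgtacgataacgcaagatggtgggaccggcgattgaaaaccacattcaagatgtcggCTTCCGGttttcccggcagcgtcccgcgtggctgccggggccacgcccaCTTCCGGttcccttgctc

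In Mrpl21 the match lies just after the start, in Mrps18c and Mrpl51 upstream of it, and in Mrpl52 there are 2 matches. Mrpl16, Mrpl12, Mrps5, Mrpl41 and Mrpl55 lay between Mrpl21 and Mrps18c in PGC-1α vs Ctrl, and held none of the searched motifs. The median log2 fold change in PGC-1α vs Ctrl was 0.22 for members with the ETS core and 0.14 for members without it, and in Ctrl+OGD vs Ctrl 0.28 for both. Over all tested genes it was -0.03 with and without the core.

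The NRF1 core GCATGCGC was in 8 of the 69 members (11.6%), against 6.52% of tested genes and 2.71% of all start regions. A longer form with GC in front of these letters, which contains the short one, was in 3 members (4.35%), against 2.56% and 0.971%. The estrogen-related receptor element TCAAGGTCA was in none of the 69, against 0.309% of tested genes and 0.423% of all start regions. The shorter core was found in 8 members, shown here so that the flanks can be compared, with the core on either strand in capitals, 5′ to 3′ on the strand of the gene:
Mrpl9: gcgcagctGCGCATGCGCggggtccttc
Mrpl10: ccagctccacGCATGCGCatagcggccc
Mrpl17: ccgagttactGCGCATGCgtcctctgag
Mrpl22: gcctcggactGCGCATGCgtatagtcag
Mrpl32: cggacttaacGCATGCGCtcagcccgcg
Mrpl33: accggaacccGCGCATGCcccggaagta
Mrpl39: ggagaggcGCGCATGCGCccccgcgtgg
Mrps18b: cgtgtcccgaGCATGCGCagtcgctctt

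The stretches lie on the plus strand for Mrpl9 at chr3:94443300-94443327, Mrpl10 at chr11:97041438-97041465, Mrpl22 at chr11:58171621-58171648 and Mrpl33 at chr5:31613929-31613956, and on the minus strand for Mrpl17 at chr7:105811081-105811108, Mrpl32 at chr13:14613042-14613069, Mrpl39 at chr16:84735350-84735377 and Mrps18b at chr17:35916395-35916422. Where a gene holds several matches the one nearest the start is shown, and the stretches of Mrpl9 and Mrpl39 hold the longer form, as does another match of Mrpl32. The match in Mrps18b lies after the start and the others lie before it. The 8 members had a median of 0.11 in PGC-1α vs Ctrl and the other members with a start region 0.17, so that holding this core did not go with a larger difference. In Ctrl+OGD vs Ctrl the medians were 0.30 and 0.28. A match describes letters and not binding.

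Genes that work with the mitochondrial ribosome were taken from lists and described beside it. The 5 subunits whose symbols fall outside the rule had a median of 0.17 in PGC-1α vs Ctrl. In Ctrl+OGD vs Ctrl all 5 lay above 0 with a median of 0.56, beside 48.0% of all tested genes above 0. Among them Ptcd3, a pentatricopeptide repeat protein of the small subunit, had 5.28 FPKM in Ctrl and 8.98 in PGC-1α, and 15.3 and 14.3 after OGD. It was low in Ctrl and highest in the OGD libraries. Dap3, a GTP-binding subunit, was at 0.18 in PGC-1α vs Ctrl, Gadd45gip1 at 0.17 and Aurkaip1 at -0.19.

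The 27 assembly factors of the mitochondrial ribosome were near 0 as a group, with 15 above 0 and a median of 0.03 in PGC-1α vs Ctrl, and 0.06 in Ctrl+OGD vs Ctrl. Of all tested genes 45.8% lay above 0 in PGC-1α vs Ctrl, 4.91% were at least 1.5-fold higher and 5.63% lower. At least 1.5-fold higher in PGC-1α vs Ctrl were Mterf3, which is linked to ribosome biogenesis, at 1.30 and Malsu1, an assembly factor of the large subunit, at 0.65. Rpusd3, an RNA pseudouridine synthase, was at 0.39, and the GTPase Mtg2 was lower at -2.02. Mtg2 had 13.1 FPKM in Ctrl and 2.49 in PGC-1α, and 11.2 and 12.2 after OGD, so that the PGC-1α library stood alone. Mterf3 had 5.88, 15.96, 23.8 and 22.7 FPKM, and like most subunits it was lowest in Ctrl.

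Of the 15 mitochondrial translation factors, 10 lay above 0 in PGC-1α vs Ctrl with a median of 0.18, beside 45.8% of all tested genes above 0. The elongation factor Gfm1 was at least 1.5-fold higher at 0.73, with 24.0 FPKM in Ctrl and 40.4 in PGC-1α, and 36.3 and 47.2 after OGD, and the release factor Mtrf1 was at least 1.5-fold lower at -1.17. The elongation factor Tufm at 0.55 and the initiation factor Mtif3 at 0.54 did not reach the criterion. The 12 tested genes for transcription and maintenance of mitochondrial DNA had a median of -0.07, with 3 above 0. They ranged from 0.36 for the polymerase Polg, 0.31 for the helicase Supv3l1 and 0.20 for the exonuclease Pnpt1 to -0.30 for the RNA polymerase Polrmt.

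The cytosolic ribosomal proteins had medians below 0 in both comparisons of PGC-1α with control. The 79 tested genes had a median of -0.15 in PGC-1α vs Ctrl, with 11 above 0, beside 45.8% of all tested genes above 0. The median after OGD was also -0.15. For all tested genes these medians were -0.03 and -0.01. Their summed level was 36224 FPKM in Ctrl and 32175 in PGC-1α, and 39181 and 35534 after OGD, so that it was lower in each PGC-1α library than in its control. In Ctrl+OGD vs Ctrl their median was 0.10. The highest values in PGC-1α vs Ctrl were 0.35 for Rpl7a, 0.21 for Rps27l and 0.14 for Rps2. Cytosolic ribosomal proteins have many pseudogene copies, and how reads shared with such copies were counted is not stated.

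Respiratory chain genes had larger medians than the mitochondrial ribosomal proteins in both comparisons of PGC-1α with control. The 37 nuclear subunits of complex I all lay above 0 in PGC-1α vs Ctrl with a median of 0.40, from 1.18 for Ndufb10, 0.96 for Ndufs1 and 0.89 for Ndufs3 down to 0.05 for Ndufa1. In PGC-1α+OGD vs Ctrl+OGD 31 of them lay above 0 with a median of 0.14. Of all tested genes 45.8% lay above 0 without OGD and 47.1% with it. The 13 proteins encoded by mitochondrial DNA, which this ribosome makes, all lay above 0 in both comparisons, with medians of 0.38 and 0.26. The highest were mt-Nd1 at 0.71, mt-Nd2 at 0.65 and mt-Nd3 at 0.60 without OGD, and the lowest was mt-Co1 at 0.16. The members of the mitochondrial ribosome, at 0.20 and -0.01, lay below both lists in these comparisons. In Ctrl+OGD vs Ctrl they lay above both lists, with 0.28 for the members, 0.24 for complex I and 0.12 for the mitochondrially encoded genes. The difference between PGC-1α and control was smaller with OGD than without in 35 of the 37 complex I genes as well. This held for 49.3% of all tested genes. The median change was -0.27 for the complex I genes. The rRNAs of the mitochondrial ribosome were not analysed here, and these values measure mRNA and not the assembled particle.

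**Figure D5:**
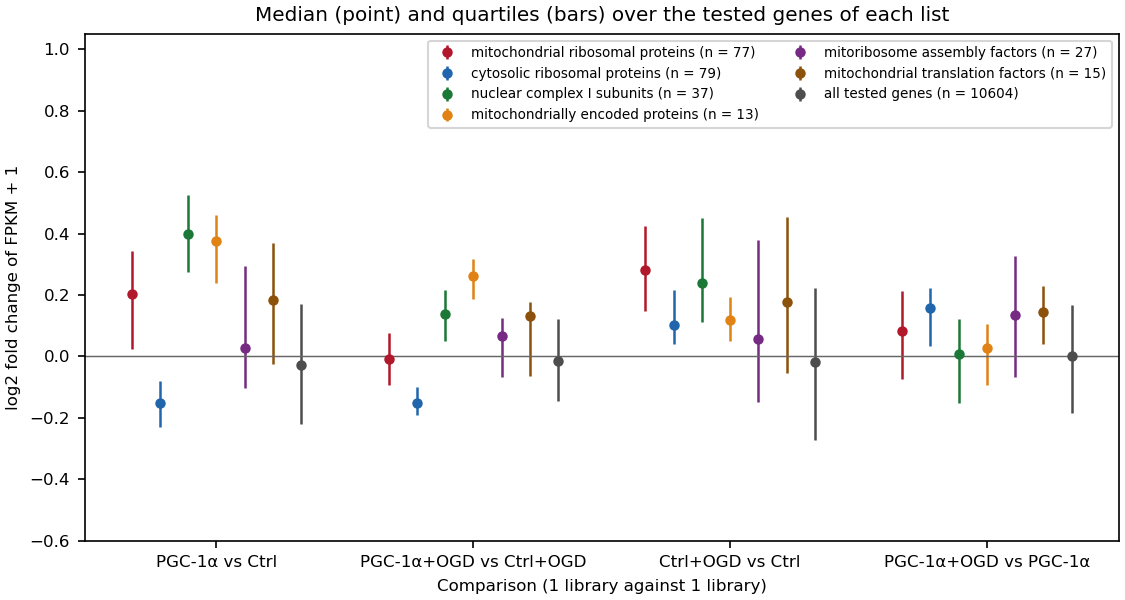
Median log2 fold change (points) and quartiles (bars) of the tested genes of each list in the 4 comparisons. The mitochondrial ribosomal proteins (red, n = 77) are at 0.20 and -0.01 in the comparisons of PGC-1α with control and at 0.28 in Ctrl+OGD vs Ctrl, while the cytosolic ribosomal proteins (blue, n = 79) are at -0.15 in both comparisons of PGC-1α with control.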

How the data were processed

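RNA-Seq of 4 HT-22 libraries, 1 per group, was analysed. Per the submitters' processing notes, reads were aligned to GRCm38 with HISAT2 2.1.0. Poly(A) RNA was prepared with a stranded kit. The authors deposited 1 value per Ensembl transcript, taken here as FPKM because the unit is not named and the values are never negative, and because column totals differ and are lower than TPM totals would be. The quantifier, annotation, transcript filter and use of strand are not given in the sources used here. No counts were available, so the depth and the precision of single values are unknown.

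Of 25889 transcripts, 25822 (99.7%) were matched by identifier without version to GENCODE release M21 and summed per symbol, and 67 were left out. Every transcript reached at least 0.500 FPKM in some library. All 78 members were found, with 152 transcripts. Pseudogenes whose symbols match the rule had no listed value. Differences of log2(FPKM + 1), which understate changes of low genes, were taken where the mean over the libraries reached 1 FPKM. No scaling was added. The size criterion of 1.5-fold follows the study's methods without its p value.

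The members and all lists were chosen with earlier results of these data known. Members named are the 5 largest rises and 3 largest falls in PGC-1α against control without and with OGD, the 3 largest of each in the OGD comparisons, members past 1.5-fold in both comparisons of PGC-1α with control, the 5 highest and 3 lowest levels, the Mrps18 paralogs, Mrps30 and Mrps36, and from each list the 3 largest rises and the largest fall in PGC-1α vs Ctrl. Other members and genes were named after their values were seen. A list gene that meets this rule is not reported here. Alternatives were a pseudocount of 0.1, no filter, a mean of at least 5 FPKM, median ratio scaling, the highest transcript, a fold change of 2, subunits by the assembled ribosome and, added after the data were seen, removal of a length and GC trend. The scripts ran under Python 3.11.15 with pandas 2.3.3, numpy 2.4.6 and, for the plots, matplotlib 3.10.9, and the computation was tested on simulated data.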

Additional observations from a re-analysis of the deposited data

Results flagged for a closer look

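Mrpl21 was the 1 member that passed 1.5-fold in opposite directions in the comparisons of PGC-1α with control, beside 0.943% of all tested genes. Its log2 fold change was 1.03 without OGD and -1.31 with OGD, a change of -2.34 (with OGD minus without). With 1 library a group this difference between the conditions was not tested. Mrpl21 overlaps Ighmbp2 on the opposite strand, and it is unknown whether reads of the 2 genes were separated.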

How the results depend on the processing

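No paired analysis was possible because each group has 1 library. The median of the members kept its side of 0 under each alternative in every comparison but PGC-1α+OGD vs Ctrl+OGD, where it was within 0.01 of 0 in all. In PGC-1α vs Ctrl, the count of members at least 1.5-fold higher (4) became 7 with a pseudocount of 0.1 or with median ratio scaling. It became 6 by the highest transcript, 3 at a mean of at least 5 FPKM and 2 at a fold of 2. The count lower (0) became 1 by the highest transcript or with the length and GC trend removed. In Ctrl+OGD vs Ctrl, the 9 higher became 2 at a fold of 2 and 5 with the trend removed. They became 8 at a mean of at least 5 FPKM or by the highest transcript. The count lower (0) became 1 by the highest transcript. In PGC-1α+OGD vs Ctrl+OGD, the 1 higher became 0 and the 2 lower became 1 at a mean of at least 5 FPKM, which leaves out Mrps34 and Mrpl3, and the 1 higher became 2 by the highest transcript. Between the PGC-1α libraries with and without OGD, the count higher (0) became 2 with a pseudocount of 0.1. It became 1 with median ratio scaling or by the highest transcript. The 2 lower became 3 by the highest transcript, 1 at a mean of at least 5 FPKM and 0 at a fold of 2.

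The large minus small subunit difference stayed small. In Ctrl+OGD vs Ctrl it was -0.087 at a mean of at least 5 FPKM, -0.047 by the highest transcript, -0.060 by the assembled ribosome and -0.049 with the trend removed. In PGC-1α vs Ctrl it was -0.0084 by the highest transcript, -0.064 by the assembled ribosome and -0.076 with the trend removed. In PGC-1α+OGD vs Ctrl+OGD it was -0.0072, 0.011 and 0.0051 under the same alternatives. In PGC-1α+OGD vs PGC-1α it was -0.0035 with a pseudocount of 0.1, 0.025 without a filter, -0.022 at a mean of at least 5 FPKM, 0.017 by the assembled ribosome and 0.0033 with the trend removed. Apart from the filter, the fold and the regrouping, which act by construction, the cause of these changes was not tested. No alternative can show how far a single library would vary if repeated, and without counts the limit that depth sets on low genes such as Mrpl53 is unknown.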
